A study of Mus musculus with 37 samples.

Results

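The genes described here are 10 members of the Notch pathway, the ligands Jag1 and Dll4, the receptors Notch1 and Notch2, the DNA-binding partner Rbpj, and the target genes Hes1, Hey1, Hey2, Heyl and Nrarp. They were taken by symbol from a table of raw read counts, and all 10 of 10 were present among its 25239 gene rows. All 10 were also among the 15046 genes that passed the filter on low counts. The counts are from bulk paired-end RNA sequencing of E10.5 mouse hearts.

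Fathers carried Stra8-iCre, a Cre recombinase active in the male germ line, and a conditional allele (Nipbl Flox/+), so that their sperm held either Nipbl Flox, which the submitters treat as wild-type, or the null allele Nipbl FIN. Mothers were Isl1 Cre/+, with a Cre gene in 1 Isl1 allele and too little working Isl1. Their embryos fell into 4 genotypes. These were Nipbl +/+; Isl1 +/+ (called wild-type, n = 10), Isl1 +/- (Isl1_het, n = 9), Nipbl +/- (Nipbl_het, n = 9) and Nipbl +/-; Isl1 +/- (double_het, n = 9). Loss of Isl1 therefore always came with the Cre gene in that locus. Nipbl encodes the protein that loads cohesin onto chromosomes, and Isl1 a transcription factor of cardiac progenitors. The labels do not say whether a library was made from the heart of 1 embryo, so p-values measure the spread between these libraries.

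Notch signaling passes between touching cells. A ligand on one cell leads to cleavage of the Notch receptor on its neighbor, and the freed intracellular part joins Rbpj on DNA and turns on target genes, among them the Hes and Hey repressors. In the developing heart the pathway is known from the endocardium, where it takes part in valve formation and in the growth of the trabeculae of the ventricular wall, and Hey1 and Hey2 mark atrial and ventricular muscle respectively.

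Each library carries a number after the letters IVF in its label, here called its set, whose meaning the labels do not give. In set 1 there were 3 wild-type libraries, 3 of Isl1_het and none with Nipbl loss, sets 2, 5 and 6 held all 4 genotypes, and set 7 held a single library, double_het replicate 2. The set was a covariate in every fit except the alternative with no set term. Where it was, double_het replicate 2 was fitted exactly, so fitted double_het changes rest on at most 8 libraries. Total counts per library ranged from 23.4 to 51.0 megacounts, with a median of 36.2. Nipbl averaged 60.0 ± 10.1 CPM (read counts scaled to library size, mean and SD) in wild-type, 61.5 ± 5.88 in Isl1_het and 38.1 ± 7.41 in double_het. The library labelled Nipbl_het replicate 2, called the doubted library below, went against its label in Nipbl RNA, with 72.4 CPM of Nipbl against 27.1 to 44.9 in the other 8 Nipbl_het libraries. Its Isl1 level of 10.9 CPM lay inside the range of those 8 libraries (9.11 to 17.5) and also inside that of wild-type (5.03 to 13.0). Isl1 averaged 7.37 ± 2.24 CPM in wild-type and 6.28 ± 1.76 in Isl1_het (log2 change -0.20, SE 0.18), so its RNA level did not separate these groups. Isl1 was higher in Nipbl_het (13.0 ± 2.82 CPM, log2 change 0.79, SE 0.19, adjusted p = 0.0252 by edgeR), and its change in double_het, labelled as having lost 1 Isl1 allele, was 0.32 (SE 0.20, adjusted p = 0.591). Isl1 loss below therefore names the label and not a measured drop in Isl1 RNA.

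That library also stood apart for the Notch genes and for others. It was the highest of all libraries for Bhlhe40 (476 CPM, median of all libraries 14.0), Bhlhe41 (165, median 14.4) and Sap30 (320, median 48.9). It was the lowest for 4 of 8 cushion mesenchyme, 3 of 7 ventricular and 4 of 9 erythroid markers. Of the cushion markers 1, Vcan (1067.5 CPM), was at its highest of all libraries there. The 8 cushion markers summed to 1357 CPM in it, mostly from Vcan. This was above the wild-type range (782 to 1210) but below the highest Nipbl_het (1407) and double_het (1397) libraries. The changes of the 10 members are given below with and without this library. Of the 37 libraries it had the highest CPM of Hey1 (90.1), Hey2 (106.0), Dll4 (28.3) and Rbpj (76.5). It had the lowest of Heyl (0.492), Hes1 (20.8), Jag1 (29.99) and Nrarp (4.53). Its Heyl level rested on 18 reads and was 0.0691 times the mean of the other Nipbl_het libraries. Notch1 (53.6 CPM, rank 19) and Notch2 (36.6 CPM, rank 4) lay among the rest. In the plot of levels by library it is drawn as an open diamond.

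**Figure D1:**
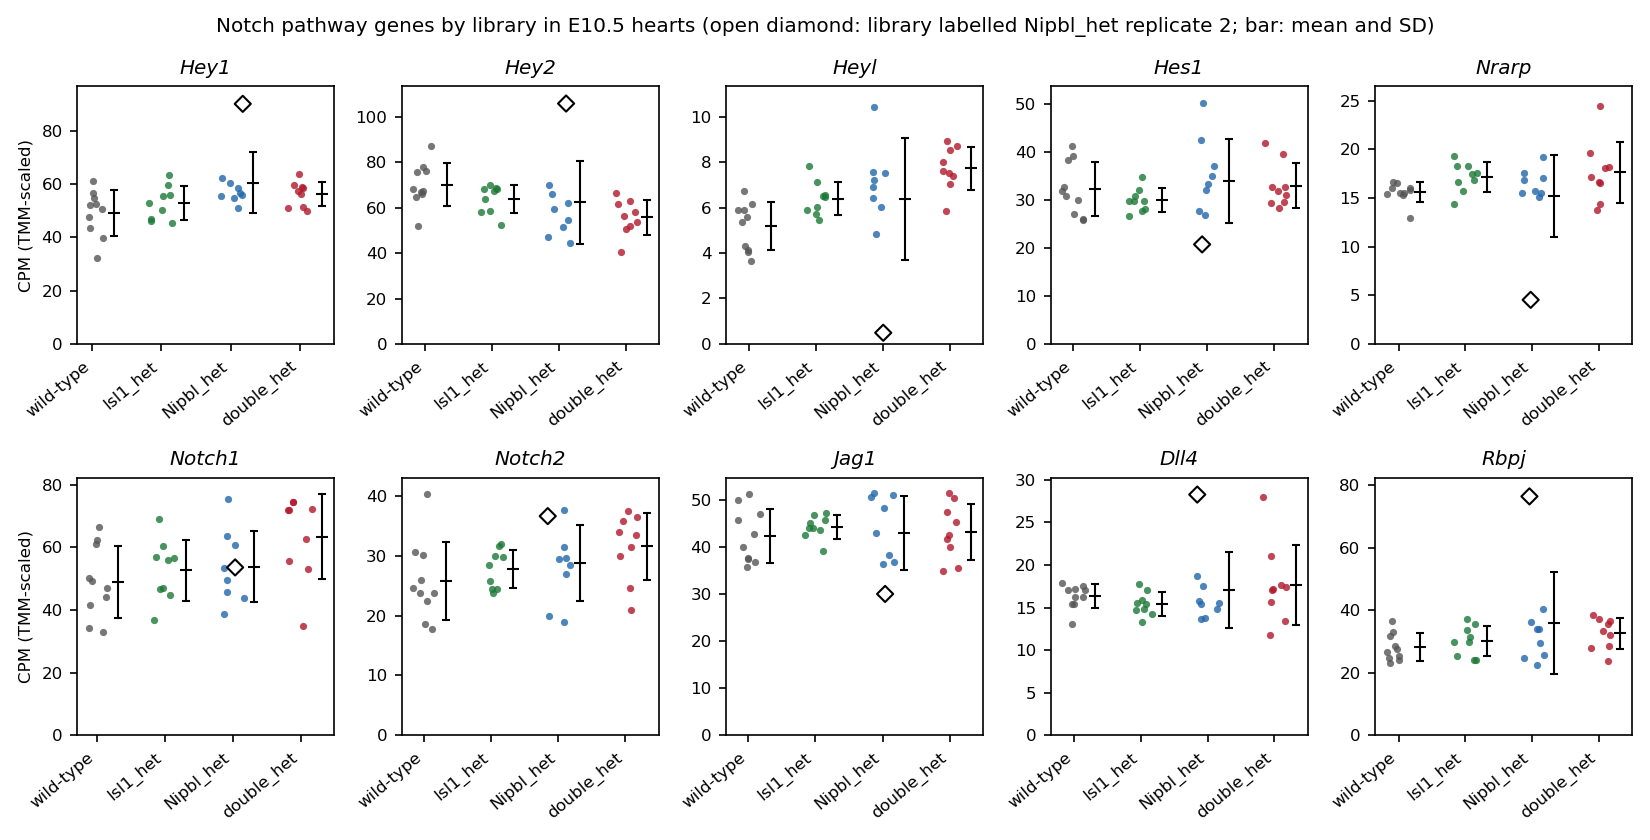
CPM after TMM scaling (y axis) of the 10 Notch pathway genes in each of 37 heart libraries, by genotype (x axis). Points are libraries, the open diamond is the library labelled Nipbl_het replicate 2, and black bars are the mean and SD of each genotype with all libraries. The mean of Hey2 is lower and that of Heyl higher in double_het than in wild-type. With all libraries the Heyl change had an adjusted p of 0.201 by edgeR's quasi-likelihood test. The diamond is the highest or lowest of all libraries for 8 of the 10 genes.

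Among the 10 genes, Hey2 and Heyl were the only ones to pass the test in any comparison, Hey2 lower and Heyl higher, and Heyl passed only with the doubted library left out. With all libraries, 1 of 10 members passed the test, Hey2 in double_het, where 2.6% of all tested genes passed (1.77% higher and 0.824% lower). In Nipbl_het 0 of 10 passed, beside 1.71% of all genes (1.2% higher and 0.518% lower); 2 members there, Hey1 and Hey2, had an unadjusted p under 0.05, and DESeq2 called 0. Without the library labelled Nipbl_het replicate 2, Hey2 fell and Heyl rose in both Nipbl_het and double_het. That is 2 of 10 members in each, beside 2.72% of all genes in Nipbl_het (1.78% higher and 0.936% lower) and 5.57% in double_het (3.33% higher and 2.24% lower). The ligands, the receptors, Rbpj, Hes1, Hey1 and Nrarp did not pass in any comparison in either fit. The test throughout was edgeR's quasi-likelihood test with Benjamini-Hochberg adjustment over all tested genes at 0.05, and changes are log2 fold changes against wild-type unless stated otherwise. In whole hearts, fewer cells that use a gene and less of its RNA per cell cannot be told apart.

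Jag1, a ligand used by endocardium and outflow tract and known from Alagille syndrome (chromosome 2, 137081456 to 137116644, minus strand), was at nearly the same level in all genotypes. Wild-type libraries ran from 35.8 to 51.1 CPM with a median of 41.3, Isl1_het from 39.0 to 47.2 (44.0), Nipbl_het from 29.99 to 51.5 (42.8) and double_het from 34.8 to 51.5 (42.5). The groups overlapped over most of their range. The change was 0.07 (SE 0.08) in Isl1_het, -0.06 (SE 0.08) in Nipbl_het and -0.04 (SE 0.09) in double_het. The 95% interval in double_het, from -0.21 to 0.13, was the narrowest of the 10 genes. When the doubted library was left out the changes were 0.06 (SE 0.06), -0.01 (SE 0.07) and -0.07 (SE 0.07).

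Dll4, the main Notch ligand of arterial endothelium and endocardium (chromosome 2, 119325784 to 119335962, plus strand), had levels of 13.1 to 17.9 CPM in wild-type (median 16.7) and 13.3 to 17.8 in Isl1_het (15.5). Nipbl_het ran from 13.7 to 28.3 CPM (15.5) and double_het from 11.8 to 27.9 (17.2). The highest values of the last 2 groups came from 1 library each, the doubted one and double_het replicate 3, and the groups otherwise overlapped. The change was -0.12 (SE 0.11) in Isl1_het, 0.03 (SE 0.12) in Nipbl_het and 0.04 (SE 0.13) in double_het. It was -0.12 (SE 0.10), -0.06 (SE 0.10) and 0.05 (SE 0.11) without the doubted library, so that the sign turned in Nipbl_het.

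Notch1, the receptor most studied in endocardium (chromosome 2, 26457903 to 26516663, minus strand), ran from 33.1 to 66.4 CPM in wild-type (median 48.1), from 36.9 to 69.0 in Isl1_het (56.1) and from 38.6 to 75.4 in Nipbl_het (53.5). In double_het it ran from 34.8 to 74.6 CPM with a median of 71.8. There, 5 of 9 libraries lay above every wild-type library and 1 lay below the wild-type mean. The fitted change was 0.18 (SE 0.12, adjusted p = 0.649) in double_het, 0.12 (SE 0.11) in Isl1_het and -0.04 (SE 0.12) in Nipbl_het, none past the threshold. They became 0.16 (SE 0.12), 0.11 (SE 0.11) and -0.03 (SE 0.12) without the doubted library. Within sets, the mean of double_het minus that of wild-type was -0.02 in set 2 (2 against 3 libraries), 0.32 in set 5 (5 against 2) and 0.16 in set 6 (1 against 2) on the log2 scale.

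Notch2, a receptor also known from cushion and outflow mesenchyme (chromosome 3, 98013527 to 98150361, plus strand), had similar spreads. Its median was 24.1 CPM in wild-type (17.7 to 40.2), 28.5 in Isl1_het (23.7 to 31.9), 29.4 in Nipbl_het (19.0 to 37.6) and 33.4 in double_het (20.9 to 37.4). The ranges overlapped throughout, and no library of the 3 heterozygous groups lay above every wild-type library. The fitted changes were 0.12 (SE 0.10), 0.02 (SE 0.11) and 0.15 (SE 0.11) in that order, and 0.11 (SE 0.10), -0.02 (SE 0.10) and 0.15 (SE 0.11) without the doubted library.

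Rbpj, the protein through which all Notch receptors act on DNA (chromosome 5, 53466152 to 53657362, plus strand), had a median of 27.1 CPM in wild-type (23.0 to 36.7), 30.01 in Isl1_het (24.1 to 37.3), 34.1 in Nipbl_het (22.4 to 76.5) and 33.5 in double_het (23.8 to 38.5). Apart from the doubted library no Nipbl_het library was above 40.4 CPM. The change in Nipbl_het was 0.16 (SE 0.14) with that library and -0.03 (SE 0.08) without it. In double_het it was 0.02 (SE 0.15) and 0.06 (SE 0.08), and in Isl1_het 0.07 (SE 0.13) and 0.08 (SE 0.07), in the same order.

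Hey2, a Notch target and repressor that marks the compact muscle of the ventricle (chromosome 10, 30832359 to 30842801, minus strand, in GENCODE M21 on GRCm38), is shown with its promoter because it was the member past the threshold with all libraries. The sequence is RefSeq's on GRCm38.p6, chr10:30842781-30843033, minus strand, and covers 250 bases before the transcript start and 3 after it. Capitals mark both matches to CGTGGGAA, the motif to which Rbpj is known to bind, searched on both strands.

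Hey2: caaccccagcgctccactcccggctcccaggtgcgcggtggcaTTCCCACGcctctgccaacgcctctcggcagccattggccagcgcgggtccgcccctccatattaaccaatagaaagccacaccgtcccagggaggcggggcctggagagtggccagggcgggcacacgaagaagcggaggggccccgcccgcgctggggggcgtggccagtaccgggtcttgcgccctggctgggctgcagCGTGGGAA

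The first match begins 207 bases before the start and lies on the other strand, so it reads TTCCCACG in the printed sequence. The other begins 5 bases before the start. Among 32851 promoter windows of 300 bases (250 before and 50 after a start), 241 (0.734%) held at least 1 match and 4 (0.0122%) held at least 2. Windows were at hand for 7 of the 10 members, 8 windows in all, and the 6 of these other than Hey2 had no match. The target genes Hey1, Heyl and Hes1 had no window and were not searched, so Hey2 cannot be compared with them. The shorter TGGGAA, which is contained in CGTGGGAA, was in 25.6% of all windows and, besides Hey2, in both windows of Rbpj. CACGTG, an E-box, was in 7.15% of all windows and in that of Nrarp. A match is a string of letters and does not show binding in these hearts.

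In wild-type hearts Hey2 ran from 51.8 to 87.3 CPM with a median of 67.9. It ran from 52.3 to 69.9 CPM in Isl1_het (median 67.4), from 44.4 to 106.0 in Nipbl_het (59.4) and from 40.7 to 66.3 in double_het (56.3). All 9 double_het libraries were below the wild-type mean of 70.2 ± 9.60 CPM (SD, n = 10), and 2 were below every wild-type library. The double_het mean was 55.8 ± 7.70 CPM (SD, n = 9).

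The log2 change of Hey2 in double_het was -0.42 (SE 0.11), a fall with an adjusted p of 0.036 by edgeR's quasi-likelihood test. Without the library labelled Nipbl_het replicate 2 it fell by 0.40 (SE 0.09, adjusted p = 0.00435). In Nipbl_het the change was -0.23 (SE 0.11, adjusted p = 0.308) with all libraries, where 1.71% of genes passed, and -0.33 (SE 0.09, adjusted p = 0.0277) without that library. In Isl1_het all 9 libraries lay below the wild-type mean, but the change of -0.18 (SE 0.10, adjusted p = 0.839) did not pass, nor did that of -0.18 (SE 0.08, adjusted p = 0.402) without the doubted library. The call in double_het with all libraries was lost in 8 of the 37 fits that left out 1 library. These left out wild-type replicates 9 and 10, Isl1_het replicate 1 and double_het replicates 4, 5, 6, 7 and 8, and gave adjusted p-values up to 0.0835. The value stayed between -0.46 and -0.37 in all 37 fits. The call was also lost with no set term (-0.33, adjusted p = 0.0962) and without set 1, 2, 5 or 6 (adjusted p from 0.081 to 0.358). With the doubted library already gone, 0 of 36 fits that left out a further library lost the call, while leaving out set 2 or 5 did. The call in Nipbl_het was then lost in 6 of 36 fits, without wild-type replicates 9 and 10 or Nipbl_het replicates 3, 4, 5 and 9 (adjusted p up to 0.0696). It was also lost with no set term (-0.31, adjusted p = 0.0709) and without set 1 (-0.32, 0.0596), 2 (-0.21, 0.359) or 5 (-0.34, 0.15).

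Heyl, the third Hey repressor (chromosome 4, 123233556 to 123249875, plus strand), was the least abundant member and moved the other way. Wild-type libraries ran from 3.65 to 6.71 CPM (median 5.48), Isl1_het from 5.44 to 7.82 (6.48), Nipbl_het from 0.492 to 10.4 (6.89) and double_het from 5.84 to 8.93 (7.58). Every Isl1_het and every double_het library was above the wild-type mean of 5.17 ± 1.05 CPM (SD, n = 10), and 8 of 9 double_het libraries were above every wild-type library. Apart from the single library at 0.492, Nipbl_het began at 4.85 CPM.

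With all libraries the Heyl change was 0.35 (SE 0.22, adjusted p = 0.844) in Isl1_het, 0.28 (SE 0.23, adjusted p = 0.591) in Nipbl_het and 0.65 (SE 0.24, adjusted p = 0.201) in double_het. None of these passed edgeR's quasi-likelihood test. Without the library labelled Nipbl_het replicate 2 the standard errors were 0.09 to 0.10, and Heyl rose by 0.43 (SE 0.10, adjusted p = 0.012) in Nipbl_het and by 0.59 (SE 0.10, adjusted p = 3.41e-04) in double_het. In Isl1_het it was then 0.32 (SE 0.09, adjusted p = 0.229). The rise in Nipbl_het was lost without Nipbl_het replicate 9 (0.36, adjusted p = 0.0604). The rise in double_het held in all 36 fits that left out 1 further library and was lost without set 5 (0.50, adjusted p = 0.25), as that in Nipbl_het was without set 2 or 5.

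**Figure D2:**
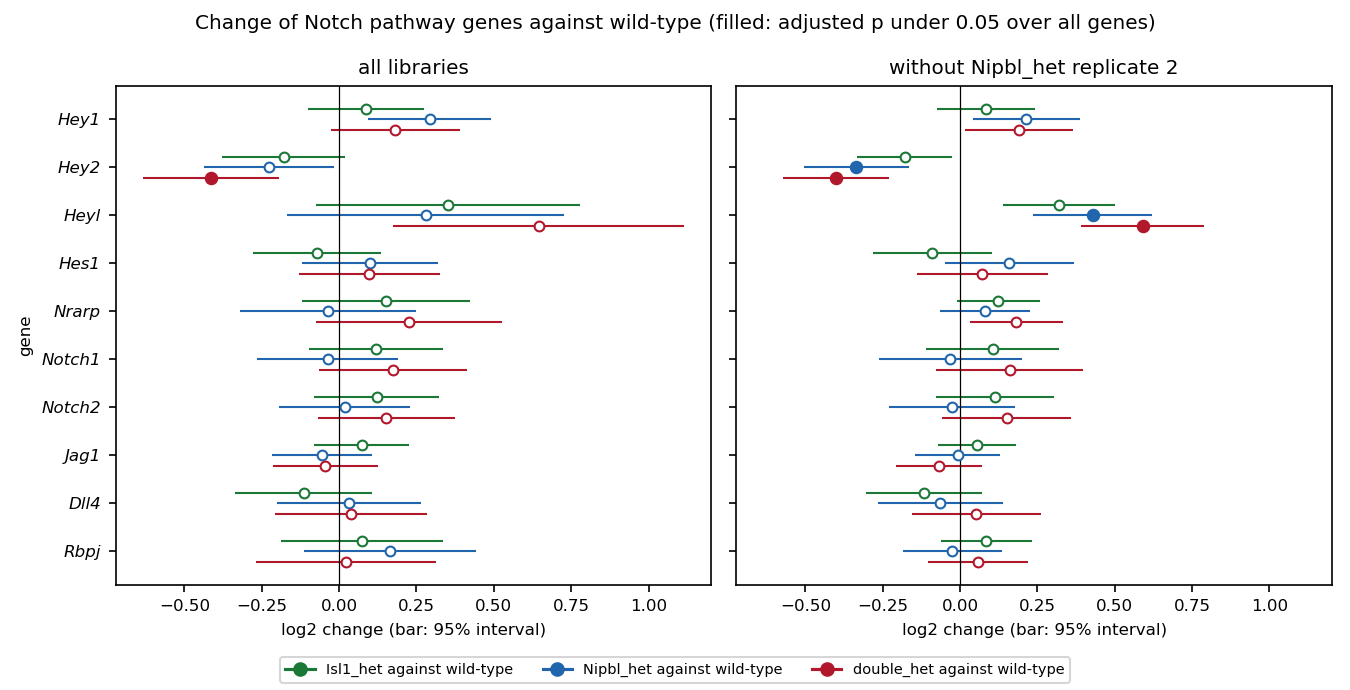
Log2 change against wild-type (x axis) of each gene (y axis) in Isl1_het, Nipbl_het and double_het, with all libraries (left) and without the library labelled Nipbl_het replicate 2 (right). Points are fitted changes, bars are 95% intervals, and filled points have an adjusted p under 0.05 over all tested genes. Hey2 in double_het (-0.42) is the only filled point on the left, and Hey2 and Heyl are filled in Nipbl_het and double_het on the right.

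Hey1, the repressor best known from atrial muscle (chromosome 3, 8663359 to 8667256, minus strand), ran from 32.1 to 61.1 CPM in wild-type (median 51.5) and from 45.4 to 63.3 in Isl1_het (52.8). It ran from 51.2 to 90.1 CPM in Nipbl_het (56.7) and from 49.8 to 63.6 in double_het (57.5). Every Nipbl_het and every double_het library was above the wild-type mean of 49.1 CPM, yet only 2 and 1 of them, respectively, were above every wild-type library. The change was 0.29 (SE 0.10, adjusted p = 0.138) in Nipbl_het and 0.18 (SE 0.11, adjusted p = 0.549) in double_het, neither past the threshold. Without the doubted library these were 0.21 (SE 0.09, adjusted p = 0.218) and 0.19 (SE 0.09, adjusted p = 0.236). In Isl1_het it was 0.09 (SE 0.10), and 0.08 (SE 0.08) without that library.

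Hes1, a repressor that answers to Notch and to other signals (chromosome 16, 30064384 to 30067796, plus strand), had medians of 31.5 CPM in wild-type (25.9 to 41.2), 29.8 in Isl1_het (26.8 to 34.9), 33.3 in Nipbl_het (20.8 to 50.3) and 31.9 in double_het (28.3 to 42.0). Nipbl_het spread most widely, and 2 of its libraries were above and 1 below every wild-type library. The changes were -0.07 (SE 0.11), 0.10 (SE 0.11) and 0.10 (SE 0.12) in Isl1_het, Nipbl_het and double_het. They became -0.09 (SE 0.10), 0.16 (SE 0.11) and 0.07 (SE 0.11) without the doubted library.

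Nrarp, a feedback inhibitor that Notch turns on and that acts on the receptor's intracellular part (chromosome 2, 25180758 to 25183339, plus strand), was tightly held in wild-type, from 13.0 to 16.7 CPM (median 15.7). It ran from 14.4 to 19.4 CPM in Isl1_het (17.4), from 4.53 to 19.2 in Nipbl_het (15.8) and from 13.7 to 24.5 in double_het (17.1). In Isl1_het 6 of 9 and in double_het 6 of 9 libraries lay above every wild-type library. The changes of 0.15 (SE 0.14) in Isl1_het and 0.23 (SE 0.15) in double_het did not pass. Without the doubted library they were 0.12 (SE 0.07, adjusted p = 0.473) and 0.18 (SE 0.08, adjusted p = 0.173), and the Nipbl_het change went from -0.04 (SE 0.15) to 0.08 (SE 0.07). An antisense gene, Gm38287, covers 79.4% of the exonic bases of Nrarp, and the strand setting of the counting is not given in the sources used here, so its count is uncertain. Gm38287 itself was not among the genes analysed here. The shared part was 9.76% for Notch1, 5.56% for Dll4 and 5.02% for Notch2, and 0 for the other 6 genes.

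A joint test of sets 2, 5 and 6 against set 1 called 43% of all tested genes and 5 of the 10 members, a share near that of all genes: Hey2, Notch1, Notch2, Jag1 and Rbpj. Within sets 2, 5 and 6, Hey2 in double_het differed from wild-type of the same set by -0.57, -0.24 and -0.33 (means of log2 CPM with a prior count of 2). In Nipbl_het the differences were -0.56, -0.06 and -0.08, and that of set 5 was -0.27 without the doubted library. In Isl1_het, Hey2 was lower in sets 1, 2 and 5 (-0.22, -0.30 and -0.05) and higher in set 6 (0.07), where Isl1_het had 1 library.

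Heyl was higher in double_het in each of these sets, by 0.54, 0.70 and 0.44. It was higher in Isl1_het in sets 1, 2, 5 and 6 by 0.38, 0.32, 0.37 and 0.34. In Nipbl_het it differed by 0.57, -0.48 and 0.31, and the set 5 value was 0.42 without the doubted library. For Hey1 the Nipbl_het differences were 0.20, 0.39 and 0.16, with 0.23 in set 5 without that library. Its double_het differences were 0.25, 0.21 and -0.01.

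**Figure D3:**
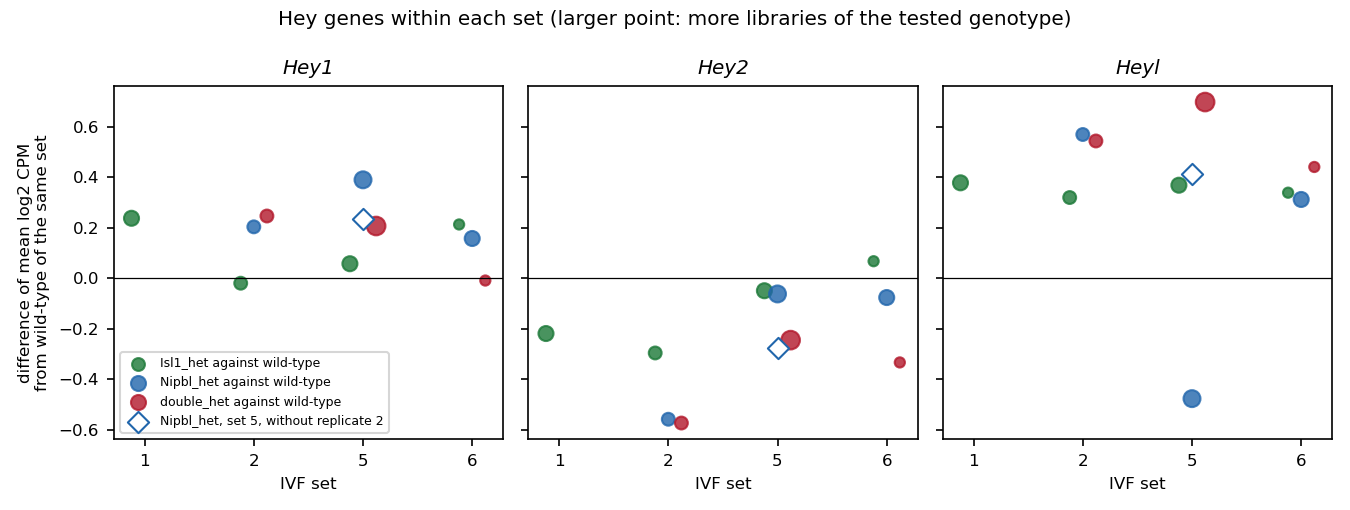
Difference of the mean log2 CPM from wild-type of the same set (y axis) for Hey1, Hey2 and Heyl in sets 1, 2, 5 and 6 (x axis), by genotype. A larger point has more libraries of the tested genotype (1 to 5), and the open diamond is Nipbl_het in set 5 without the library labelled Nipbl_het replicate 2. Heyl lies above 0 in each set except Nipbl_het in set 5 with that library (-0.48), and Hey2 in double_het lies below 0 in sets 2, 5 and 6.

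Of the 8 contrasts tested, the other 5 compared the heterozygous groups with each other or averaged over them. In Isl1_het against wild-type 0% of all tested genes passed (0 genes, 886 at an unadjusted p under 0.05, 11 with DESeq2) and no member did, also by unadjusted p. After removal of the doubted library 0.0133% passed (2 genes, both higher) and no member. Between double_het and Isl1_het 0.957% of genes passed (0.532% higher and 0.425% lower) and no member did. After its removal 2.4% passed (1.4% higher and 0.995% lower), again with no member. With all libraries Hey2 differed by -0.24 (SE 0.11, adjusted p = 0.625) and Heyl by 0.29 (SE 0.24, adjusted p = 1.00) between double_het and Isl1_het. With the doubted library left out these were -0.22 (SE 0.09, adjusted p = 0.243) and 0.27 (SE 0.10, adjusted p = 0.205). Between double_het and Nipbl_het 0% passed (0 genes, 1355 at an unadjusted p under 0.05, 0 with DESeq2). The differences there were -0.19 (SE 0.11) for Hey2 and 0.37 (SE 0.23) for Heyl, or -0.07 (SE 0.09) and 0.16 (SE 0.10) without the doubted library.

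The interaction is the double_het change minus both single changes, in log2 units. No member and 0% of genes passed (0 genes, 411 at an unadjusted p under 0.05, 0 with DESeq2). For Hey2 it was -0.01 with a 95% interval from -0.30 to 0.28, and for Heyl 0.01 with an interval from -0.60 to 0.63. With the doubted library left out the intervals were -0.12 to 0.34 and -0.42 to 0.10.

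Averaged over Isl1 genotype, Nipbl loss changed 4.02% of all genes (2.67% higher and 1.36% lower) and no member, with Hey2 at -0.23 (SE 0.08, adjusted p = 0.12) and Heyl at 0.29 (SE 0.17, adjusted p = 0.484). With the doubted library gone, 6.93% passed (4.28% higher and 2.65% lower), and Hey2 fell by 0.28 (SE 0.06, adjusted p = 0.00511) while Heyl rose by 0.35 (SE 0.07, adjusted p = 0.00233), both by edgeR's quasi-likelihood test. Averaged over Nipbl genotype, Isl1 loss changed 0.173% of genes (0.146% higher and 0.0266% lower) and no member, with Hey2 at -0.18 (SE 0.07, adjusted p = 0.317) and Heyl at 0.36 (SE 0.16, adjusted p = 0.37). Without the doubted library 0.372% passed (0.245% higher and 0.126% lower) and no member, with -0.12 (SE 0.06) for Hey2 and 0.24 (SE 0.07) for Heyl. The double_het and wild-type libraries never separated fully for any member, while they did for 0.405% of all tested genes. The median change over the 10 members in double_het was 0.12, with 8 positive, beside -0.0019 and 7445 positive of 15046 over all genes.

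Per exon length, the targets Hes1, Hey2 and Hey1 were the most abundant members and the target Heyl the least, with Nrarp between Jag1 and Dll4. Divided by the exonic length in GENCODE M21, wild-type means were 15.9 CPM per kb for Hes1, 15.3 for Hey2, 15.0 for Hey1, 7.27 for Jag1, 6.04 for Nrarp, 4.23 for Dll4, 3.43 for Notch1, 2.39 for Notch2, 2.21 for Rbpj and 1.01 for Heyl. The lengths are of all annotated exons and need not match the transcripts used in the heart. Among neighbors in this order, Hes1 and Hey2 (in order in 5 of 10 wild-type libraries) and Hey2 and Hey1 (4 of 10) cannot be ranked. Dll4 was above Notch1 in 8 of 10 libraries, and Notch2 above Rbpj in 7 of 10. The ranges of Hey1 and Jag1, of Nrarp and Dll4, and of Rbpj and Heyl did not overlap. In double_het the mean of Hey2 (12.1 CPM per kb) was below those of Hes1 (16.2) and Hey1 (17.2).

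**Figure D4:**
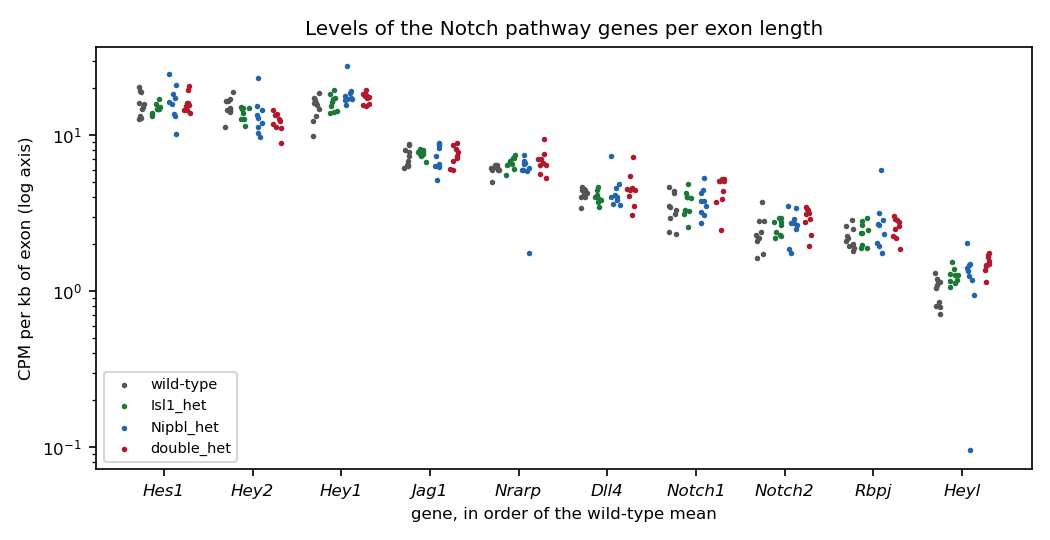
CPM per kb of exon (y axis, log scale) of the 10 genes, ordered by their wild-type mean (x axis). Each point is a library, colored by genotype. Hes1, Hey2 and Hey1 lie together near 15 in wild-type and Heyl lies near 1. The library labelled Nipbl_het replicate 2 lies far below the rest for Heyl and Nrarp.

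Around the 10 members, 83 further Notch-related genes were listed by role, and 77 of them passed the filter on low counts. Against wild-type, 0 of the 77 passed in Isl1_het, 0 in Nipbl_het and 2 in double_het, and these 2 were Sox17 and Tle1, both higher. Of all tested genes, 0%, 1.71% and 2.6% passed in these groups, so these counts are near the background and say nothing particular about the list. Their median change was 0.01 in double_het, with 40 of 77 positive. The listed genes that failed the filter were the ligand Dll3 and the transcription factors Rbpjl, Hes2, Hes3, Hes5 and Helt, none above 0.183 CPM in any library. Of the other ligands and receptors, 8 of 9 were tested and none passed against wild-type. Among them Notch3 had the changes 0.14 (SE 0.18), 0.24 (SE 0.19) and 0.33 (SE 0.20) in Isl1_het, Nipbl_het and double_het, and Jag2 had -0.03 (SE 0.14), 0.27 (SE 0.15) and -0.02 (SE 0.16).

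Sox17, an endothelial transcription factor listed with Notch-related heart genes, ran from 3.53 to 4.91 CPM in wild-type (median 4.42) and from 4.64 to 11.8 in double_het (5.87). Apart from 1 library at 4.64 CPM, double_het lay above every wild-type library, and double_het replicate 7 stood highest. Sox17 rose by 0.61 (SE 0.16, adjusted p = 0.0289) in double_het by edgeR's quasi-likelihood test, a call lost without set 1 (adjusted p = 0.0693), 2 (0.154) or 6 (0.37, adjusted p = 0.323). The change was 0.38 (adjusted p = 0.207) without double_het replicate 7, and the call was also lost without wild-type replicates 4, 6 and 8 or double_het replicates 6 and 9. Averaged over Isl1 genotype it rose by 0.40 (SE 0.12, adjusted p = 0.0453), a call lost in 22 of 37 fits that left out 1 library and in 7 of 10 other settings. Those were the replicate block (adjusted p = 0.104), DESeq2 size factors (0.054), no filter on low counts (0.0613) and each set left out (up to 0.243). With the doubted library left out, Sox17 rose by 0.63 (SE 0.13, adjusted p = 0.00256) in double_het, a call lost in 0 of 36 fits that left out 1 more library and in 0 of 10 other settings. The averaged change was then 0.33 (SE 0.10, adjusted p = 0.0296), a call lost in 4 of those 36 fits and in 4 of 10 settings, each of which left out 1 set.

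Tle1, a corepressor recruited by Hes and Hey proteins, ran from 17.2 to 23.8 CPM in wild-type (median 19.5) and from 22.1 to 26.4 in double_het (23.8). The ranges overlapped, and the lowest double_het library was above the wild-type median. It rose by 0.25 (SE 0.06, adjusted p = 0.0258), and the call was lost in 12 of 37 fits that left out 1 library and without set 1, 2, 5 or 6 (adjusted p up to 0.51). Without the doubted library it rose in Nipbl_het by 0.23 (SE 0.06, adjusted p = 0.0202) and in double_het by 0.24 (SE 0.06, adjusted p = 0.0129). The first of these calls was lost without set 2, 5 or 6 or without Nipbl_het replicate 9, and the other without set 2 or 5. Averaged over Isl1 genotype Tle1 then rose by 0.17 (SE 0.04, adjusted p = 0.0131), a call lost without set 2, 5 or 6.

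Adam10, the protease that makes the first cut in an activated Notch receptor, ran from 87.6 to 165 CPM in wild-type (median 127) and from 94.3 to 156 in Nipbl_het (134). Averaged over Isl1 genotype it fell by 0.21 (SE 0.06, adjusted p = 0.0338) with set in the model. The value was -0.02 (adjusted p = 0.897) without the set term, and the call was lost in 10 of 37 fits that left out 1 library. It was also lost without set 2 (-0.12, adjusted p = 0.586) or 6 (-0.25, adjusted p = 0.0724) and with no filter on low counts (adjusted p = 0.0503). With the doubted library left out the value was -0.21 (SE 0.06, adjusted p = 0.0217), and that call was lost in 2 of 36 fits that left out 1 more library, without set 2 or 6 and with no set term.

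A further 4 genes passed when the doubted library was left out and not with it, and they are named here after their values were seen. In that fit 2.72% of all tested genes passed in Nipbl_het, 5.57% in double_het and 6.93% with Nipbl loss averaged over Isl1 genotype. Lfng, a glycosyltransferase that modifies Notch receptors, ran from 3.09 to 6.29 CPM in wild-type (median 5.04), from 5.06 to 10.6 in the other 8 Nipbl_het libraries (7.51) and from 6.59 to 9.15 in double_het (8.37). Every double_het library was above every wild-type library, and of all tested genes 0.405% had no overlap between these groups in either direction. Lfng then rose by 0.55 (SE 0.13, adjusted p = 0.0154) in Nipbl_het, and by 0.56 (SE 0.13, adjusted p = 0.00742) in double_het. The Nipbl_het call was lost without Nipbl_het replicate 9 and without set 2, 5 or 6 (adjusted p up to 0.157), and the double_het call without set 2 or 5 (adjusted p up to 0.223). Averaged over Isl1 genotype Lfng rose by 0.47 (SE 0.10, adjusted p = 0.00189), a call lost without set 5 (adjusted p = 0.0602). With all libraries these values were 0.41 (SE 0.20, adjusted p = 0.346) and 0.61 (SE 0.21, adjusted p = 0.151), and the doubted library had 1.31 CPM. The gap junction genes Gja4 (-0.31, SE 0.08, adjusted p = 0.0086) and Gja5 (-0.26, SE 0.07, adjusted p = 0.0152) fell with Nipbl loss averaged over Isl1 genotype. Both calls were lost without set 2 or 5, and that of Gja5 also with the replicate block (-0.20, adjusted p = 0.108) and with no set term (-0.07, adjusted p = 0.678). Dtx2, a Deltex ubiquitin ligase, rose by 0.14 (SE 0.04, adjusted p = 0.0267) with Nipbl loss averaged over Isl1 genotype. That call was lost with no set term (0.03, adjusted p = 0.773), without set 2 (0.10, adjusted p = 0.35) or 6 (0.13, adjusted p = 0.101), and without Isl1_het replicate 5.

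**Figure D5:**
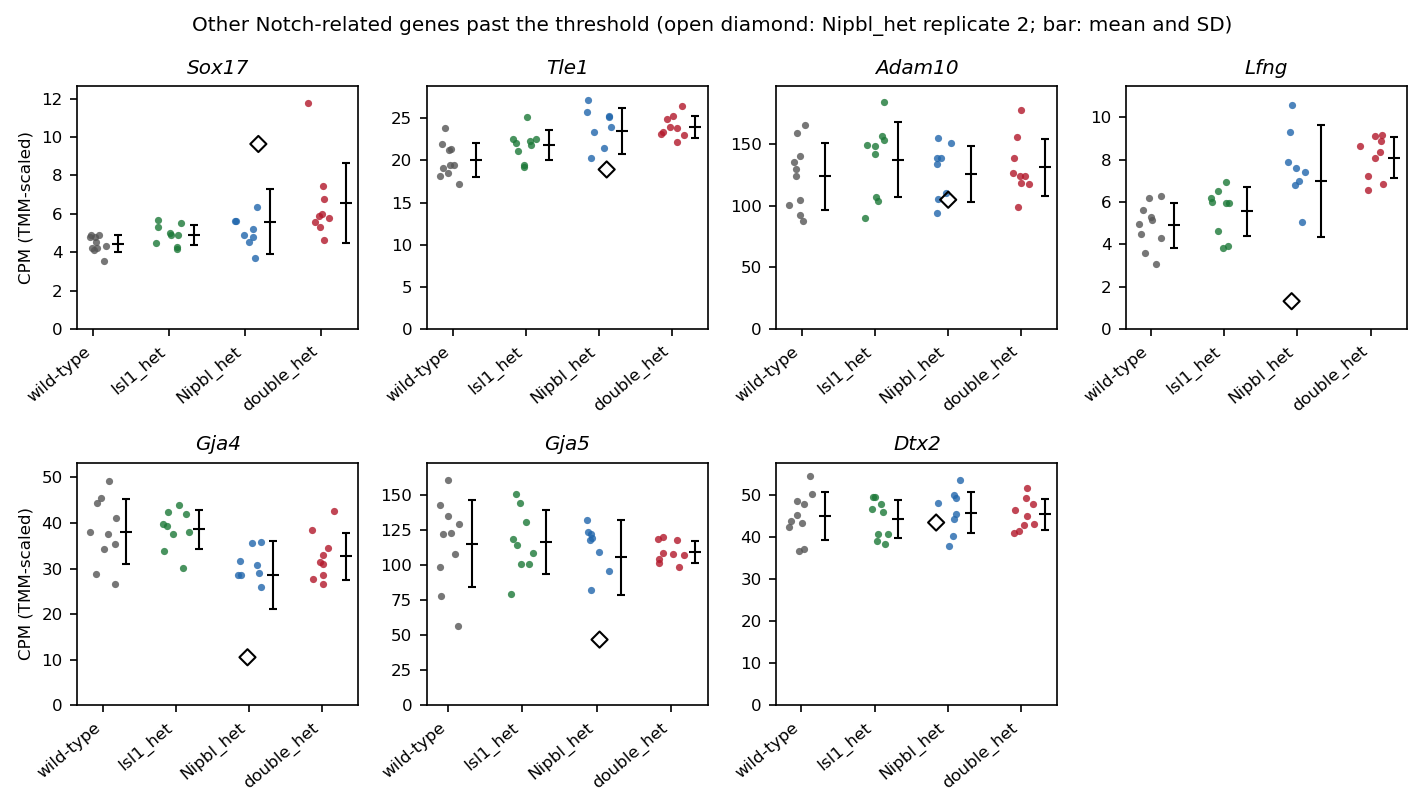
CPM after TMM scaling (y axis) by genotype (x axis) of the 7 other Notch-related genes that passed in any contrast in either fit. Points are libraries, the open diamond is the library labelled Nipbl_het replicate 2, and black bars are the mean and SD with all libraries. The 9 double_het libraries of Lfng (6.59 to 9.15 CPM) lie above all wild-type libraries (up to 6.29 CPM).

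Ventricular muscle markers summed to a median of 7871 CPM in wild-type (4607 to 9795), 5775 in Isl1_het (4881 to 7848), 5080 in Nipbl_het (3478 to 8350) and 5042 in double_het (4048 to 9309), and all 7 had negative changes in both Nipbl_het and double_het and 6 of 7 in Isl1_het. Of these 7 genes, 3 fell in Nipbl_het (Gja1, Irx4 and Mycn) and 2 in double_het (Irx4 and Mycn), beside 0.518% and 0.824% of all genes that fell, and none in Isl1_het. The ventricular sum was mostly Myl2 and Myl3 (medians over all libraries 3043 and 2268 CPM), and neither was among the genes that fell. The marker lists were chosen with earlier results of these data known. Shares of markers that passed, here and below, are therefore descriptions and not independent tests. The medians of atrial muscle markers were 7768, 6263, 6343 and 6113 CPM in wild-type, Isl1_het, Nipbl_het and double_het, and those of general muscle markers 32666, 28856, 28509 and 29968 CPM, and all of these groups overlapped wild-type. The atrial sum was mostly Myl7 and Myl4 (medians over all libraries 2955 and 3523 CPM), with Stard10 next at 96.1. It therefore says little about the other atrial markers. Of the 7 atrial markers, Sln rose in Nipbl_het and in double_het, beside 1.2% and 1.77% of all genes that rose, and Nr2f2 also rose in Nipbl_het (0.61, adjusted p = 0.016) with the doubted library left out, beside 1.78% of all genes. With all libraries 0 of the 7 general ones passed in any of the 3 groups. Mycn fell by 0.50 (SE 0.08, adjusted p = 1.98e-04) in double_het, where Hey2 changed by -0.42. The same 3 and 2 ventricular genes passed without the doubted library, beside 0.936% and 2.24% of all genes that fell. The part of these markers in the change of Hey2 was not tested.

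Endothelial and endocardial markers, the cells in which much of the pathway acts, summed to medians of 1034 CPM in wild-type (853 to 1115), 1075 in Isl1_het (852 to 1281), 1039 in Nipbl_het (880 to 1219) and 1173 in double_het (927 to 1346). None of the 12 passed against wild-type with all libraries, and none was at 0 in any library. In double_het 10 of 12 had positive changes. Without the doubted library 1 of 12, Npr3, fell in Nipbl_het by 0.25, beside 0.936% of all genes that fell. Epicardial markers summed to 261 to 463 CPM in wild-type (median 411), 307 to 553 in Isl1_het (496), 407 to 614 in Nipbl_het (505) and 519 to 674 in double_het (634). Only double_het did not overlap wild-type, and 5 of 7 rose in double_het, beside 1.77% of all genes. Without the doubted library 6 of 7 rose there, beside 3.33% of all genes. In Nipbl_het 1 of 7 rose, Wt1 (0.31, SE 0.07, adjusted p = 0.0178), beside 1.2% of all genes. With the doubted library left out the adjusted p of Wt1 was 0.0116, beside 1.78% of all genes that rose. Cushion mesenchyme markers had medians of 1112 CPM in wild-type and 1118 in double_het, and 0 of 8 passed. Neural markers had medians of 31.5 CPM in wild-type, 29.2 in Isl1_het, 43.1 in Nipbl_het and 38.5 in double_het, with overlap, and 4 of 6 were tested. None of the 4 passed against wild-type with all libraries. Of these, Tubb3 rose with Nipbl loss averaged over Isl1 genotype (0.49, adjusted p = 0.0234), beside 2.67% of all genes that rose. With the doubted library left out Tubb3 also rose in Nipbl_het (0.54, adjusted p = 0.0186), beside 1.78% of all genes. The part of these cell types in the change of Heyl was not tested. In the library labelled Nipbl_het replicate 2, endothelial markers summed to 985 CPM, inside the range of the other libraries, while 3 of the 12 were at their highest and 5 at their lowest of all 37 libraries.

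With set means removed from log2 CPM and genotype differences kept, and over the 36 libraries of sets with more than 1 library, the closest pair was Heyl and Nrarp (Pearson r = 0.89), but without the doubted library r was 0.39 over 35 libraries. With and without that library, r was 0.74 and 0.79 for Notch1 and Notch2 and 0.55 and 0.66 for Notch2 and Rbpj. The most negative pair in both was Hes1 and Rbpj (-0.68 and -0.66), and Hes1 also had -0.60 and -0.58 with Notch2 and -0.48 and -0.58 with Notch1. Hey2 and Heyl had -0.61 and -0.45, and Hey1 and Hey2 -0.16 and -0.56. The libraries share genotypes and processing, so genes that differ between genotypes correlate for that alone, and the values are descriptions. Among 12187 genes whose average log2 CPM reached 1, those most like Hey2 over 35 libraries were Mycn (r = 0.85), Cap2 (0.83) and Lpar3 (0.81). With all libraries they were Cdh2 (0.82), Rcan1 (0.81) and Camk2d (0.81). Those most like Heyl were Atp9a (0.84), Pde8a (0.84) and Nrsn2 (0.81) without the library and Pcdh12 (0.93), Gm9899 (0.92) and Mmp28 (0.92) with it. For Hey1 they were Stard10 (0.84), Kcna5 (0.84) and Trabd2b (0.81) without it and Bcar3 (0.76), Pde7a (0.75) and Tes (0.74) with it. Without the library the first in order was Id1 for Hes1 (0.89), Ski for Notch1 (0.93), Cdh3 for Notch2 (0.92), Cmya5 for Jag1 (0.77), Pfkp for Dll4 (0.83), Pank3 for Rbpj (0.91) and Loxl2 for Nrarp (0.76).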

How the data were processed

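The authors deposited raw read counts per gene symbol for 37 libraries. Their values are whole numbers with no normalization. Per the submitters' processing notes, STAR, featureCounts and GRCm38 (mm10) were used. Versions, annotation, strand setting and filters are not given in the sources used here. Per the labels' protocols, a NEBNext Ultra II kit was used on total RNA. Libraries took their genotype from their titles and their set from the description. No 2 libraries of a group were the same library deposited again, since over 153 pairs the lowest chi-square per degree of freedom was 7.19.

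Low genes were removed by filterByExpr within genotypes (at least 10 counts, total at least 15). TMM scaling and edgeR's quasi-likelihood fit used genotype and set as factors, in R 4.3.3 with limma 3.58.1 and edgeR 4.0.16. All 37 libraries entered 1 fit, which was repeated without the library labelled Nipbl_het replicate 2 (15072 genes). P-values are two-sided and adjusted by Benjamini-Hochberg over all tested genes in each of 8 contrasts. The SE comes from the F statistic, and intervals are 95% normal intervals. The fit was tested on simulated data for Nipbl_het against wild-type. It recovered 51.0% of the genes given a log2 change of 0.5 and 88.8% of those given 1. A gene that did not pass can therefore still have changed. Named were the 10 members, other listed Notch genes past the threshold in any contrast, Nipbl and Isl1, and the 3 genes most like each member (Pearson r, set means removed, genotype kept). The members and gene lists were chosen with earlier results of these data known. Alternatives were no set term, a replicate block, DESeq2 1.42.0, DESeq2 size factors, other filters, each set left out and each library left out. Leaving out the doubted library on top of each was added after seeing the data. Depth was 23.4 to 51.0 megacounts per library. Python 3.11.15, pandas 2.3.3 and matplotlib 3.10.9 were used for tables and figures.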

Additional observations from a re-analysis of the deposited data

Results flagged for a closer look

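Levels were compared within each genotype for a library far from its neighbors, over 40 groups (10 genes in 4 genotypes), of which 7 had one. Chance alone gives about 1 in 20 groups. In the library labelled Nipbl_het replicate 2, Hey1 (90.15 CPM), Hey2 (106.0 CPM), Dll4 (28.27 CPM) and Rbpj (76.47 CPM) were far above the next Nipbl_het library (62.42, 70.24, 18.72 and 40.4 CPM), and Nrarp (4.533 CPM) was far below it (15.09 CPM). In wild-type, Dll4 was lowest in replicate 7 at 13.05 CPM, with the next library at 15.41 CPM, and Nrarp was lowest in replicate 3 at 12.97 CPM, with the next at 15.33 CPM.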

How the results depend on the processing

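The number of members called in double_het against wild-type, 1 with all libraries, was 0 with no set term and 0 without set 1, 2, 5 or 6. It ranged from 0 to 2 when 1 library was left out. In Nipbl_het the count of 0 ranged from 0 to 2 over those fits, with 2 only without the library labelled Nipbl_het replicate 2. For Nipbl loss averaged over Isl1 genotype the same range of 0 to 2 held, and the fit with the replicate block gave 1. With that library left out, the 2 calls in Nipbl_het became 1 with no set term or without set 1, and 0 without set 2 or 5 (0 to 2 with 1 further library left out). The 2 in double_het became 1 without set 2 and 0 without set 5, the 2 averaged over Isl1 genotype became 0 without set 2 or 5, and the 0 for Isl1 loss became 1 with DESeq2 (0 to 1 with 1 further library left out). Fits without a set hold fewer libraries, and the other causes were not tested.

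Values that changed sign were all of members not past the threshold. In Nipbl_het they were Hes1 (-0.077 without set 6), Notch1 (0.14 with no set term, 0.015 without set 6), Notch2 (-0.029 with the replicate block, -0.0041 without set 1, -0.087 without set 5), Jag1 (0.015 with no set term), Dll4 (-0.094 with the replicate block, -0.054 without set 5), Rbpj (-0.16 without set 5) and Nrarp (0.12 without set 5). In double_het they were Jag1 (0.026 with no set term), Dll4 (-0.0072 with the replicate block, -0.14 without set 5) and Rbpj (-0.022 without set 5). With 1 library left out, the ranges that crossed 0 in Nipbl_het were Dll4 (-0.064 to 0.063), Notch1 (-0.11 to 0.024), Notch2 (-0.043 to 0.0875), Nrarp (-0.085 to 0.081) and Rbpj (-0.026 to 0.22). In double_het they were Dll4 (-0.054 to 0.092) and Rbpj (-0.063 to 0.058), and in Isl1_het Hes1 (-0.12 to 0.0031).

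Over all genes, the calls in Nipbl_het (258) ranged from 31 without set 2 to 467 with no set term, and those in double_het (391) from 67 without set 5 to 570 with no set term. With 1 library left out they ranged from 167 to 410 and from 244 to 839. Between double_het and Isl1_het (144) they ranged from 12 without set 5 to 234 with DESeq2, for Nipbl loss averaged over Isl1 genotype (605) from 152 without set 2 to 1045 with no set term, and for Isl1 loss averaged over Nipbl genotype (26) from 0 with no set term to 115 with DESeq2. Same-numbered replicates did not deviate together (mean correlation 0.0146 over 51 pairs, 5 of 36 libraries closest to their own number), so the numbers do not pair libraries. The direction of Hey2 and Heyl where they were called held under all alternatives run. Heyl, at 1.01 CPM per kb, is the member with the fewest reads.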
